A study of Mus musculus with 15 samples.

Results

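The 10 genes described here encode enzymes of glycolysis (Hk1, Hk2, Pfkp, Eno2 and Pkm), the lactate dehydrogenases Ldha, Ldhb and Ldhd, the lactate transporter gene Slc16a3 and the lactate receptor gene Gpr81, which current annotation calls Hcar1. They were chosen by symbol, with earlier results of these data known, and all 10 were found among the 23393 genes of each of the 3 tables. The tables compare kidneys of C57BL/6 mice with floxed ERRg alleles and the Sim1-Cre transgene (ERRg fl/fl;Sim1-Cre, called knockout) with kidneys of Cre-negative littermates that carry the same floxed alleles (ERRg fl/fl, called control). ERRg, encoded by Esrrg, is an orphan nuclear receptor of genes of mitochondrial energy metabolism. The labels give 3 knockout and 2 control males at 3 weeks of age, 2 knockout and 2 control females at 3 weeks, and 3 knockout and 3 control males at 3 months, 15 libraries in all. The labels do not say which kidney cells Sim1-Cre reaches.

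Glycolysis splits glucose into pyruvate in the cytosol, and lactate dehydrogenase converts pyruvate to lactate and back. In the healthy kidney the proximal tubule burns fatty acids and lactate, makes glucose and carries out little glycolysis, while distal segments, the medulla and immune cells use glycolysis more. Hexokinase, phosphofructokinase and pyruvate kinase catalyse its committed steps, enolase acts just before pyruvate kinase, and monocarboxylate transporters move lactate across membranes.

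The deposited tables hold a mean of normalized counts, a log2 fold change, its standard error and p-values for each gene, and no value per library. Recurring lowest means pointed to 4, 4 and 5 libraries behind the tables of 3-week males, 3-week females and 3-month males, with 2 knockouts in each if positive values mean higher in the knockout. With the ratio turned, the table of 3-month males would hold 3 knockouts and 2 controls. The number behind each mean is therefore uncertain, and p-values measure only the spread between the libraries used. Summed over genes, the mean counts, in units of 1e6, came to 47.5, 33.9 and 18.8 in the same order. The tables do not say which genotype is on top of the ratio. Esrrg itself had log2 fold changes of 0.82 ± 0.20 (SE) in 3-week males, 1.04 ± 0.17 in 3-week females and -0.87 ± 0.57 in 3-month males in the authors' deposited tables, so its sign was not the same at both ages, the 3-month value has no p-value, and the labels do not name the floxed exon. Positive values are read here as higher in the knockout, because the genes of mitochondria and tubular reabsorption that the study's title names are then lower there. On that reading Esrrg, the targeted gene, was called higher in the knockout in both tables of 3-week kidneys, and the cause was not tested. Every direction below rests on that reading, and with the ratio turned, higher and lower change places. The lower pyruvate and proximal tubule genes described below are therefore no independent result in their direction. Source names of the 3-month knockouts say female, against male in their titles and sex tags. Xist, transcribed in female cells, had a mean of 11.9 normalized counts in the table of 3-month males and 23848 in that of 3-week females, and the Y-linked Ddx3y had 1477 and 0.831. In whole kidneys, fewer cells of a type and less RNA per cell cannot be told apart.

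Promoter windows of 4 genes are printed here because Ldhb was lower and Eno2 higher in all 3 comparisons, while Hk2 and Slc16a3 had the largest positive values at 3 months. Each runs from 250 bases before to 50 bases after the RefSeq start (GRCm38.p6), 5′ to 3′ on the gene's strand. Capitals mark the hypoxia response core, spelled ACGTG or GCGTG on either strand (CACGT and CACGC when read backwards).
Ldhb (chr6:142507908-142508207, minus strand): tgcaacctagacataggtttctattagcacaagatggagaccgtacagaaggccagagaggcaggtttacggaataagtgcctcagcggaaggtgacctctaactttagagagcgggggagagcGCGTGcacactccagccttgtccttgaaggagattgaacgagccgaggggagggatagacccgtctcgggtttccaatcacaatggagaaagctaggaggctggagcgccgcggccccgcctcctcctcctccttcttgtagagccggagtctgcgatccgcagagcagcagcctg
Eno2 (chr6:124769624-124769923, minus strand): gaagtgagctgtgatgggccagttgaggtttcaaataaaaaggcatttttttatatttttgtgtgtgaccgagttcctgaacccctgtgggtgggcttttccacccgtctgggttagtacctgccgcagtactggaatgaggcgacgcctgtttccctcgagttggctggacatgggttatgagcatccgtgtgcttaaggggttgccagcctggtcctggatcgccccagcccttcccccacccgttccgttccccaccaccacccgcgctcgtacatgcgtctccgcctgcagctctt
Hk2 (chr6:82774405-82774704, minus strand): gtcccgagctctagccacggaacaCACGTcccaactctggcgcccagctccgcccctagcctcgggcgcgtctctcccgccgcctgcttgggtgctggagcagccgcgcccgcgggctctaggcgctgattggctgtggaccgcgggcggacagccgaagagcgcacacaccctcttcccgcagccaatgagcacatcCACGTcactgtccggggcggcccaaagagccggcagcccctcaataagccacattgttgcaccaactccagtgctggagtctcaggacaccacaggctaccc
Slc16a3 (chr11:120948817-120949116, plus strand): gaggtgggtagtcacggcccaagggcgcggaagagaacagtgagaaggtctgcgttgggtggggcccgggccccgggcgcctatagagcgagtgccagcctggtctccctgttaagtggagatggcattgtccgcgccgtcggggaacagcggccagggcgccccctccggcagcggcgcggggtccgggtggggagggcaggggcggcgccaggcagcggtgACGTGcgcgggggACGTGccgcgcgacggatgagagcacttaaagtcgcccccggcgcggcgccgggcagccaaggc

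The Hk2 window held CACGT at positions -226 and -52 relative to the start, the Slc16a3 window ACGTG at -27 and -14, the Ldhb window GCGTG at -126, and the Eno2 window held neither core. All 10 genes matched at least 1 RefSeq promoter window. The ERR response element core AAGGTCA, searched on both strands, was in none of their windows and in 4.72% of the 32851 windows of all genes. ACGTG was in a window of 6 of the 10 genes, against 19.6% of all windows, and GCGTG in a window of 5, against 32.4%. The E-box CACGTG, which contains ACGTG, was in a window of Ldha and of Ldhd, against 7.15% of all windows. Genes with more than 1 window have more chances to match. The Slc16a3 window held 36 CpG dinucleotides and was 73.3% G and C, the Hk2 window 25 and 67.3%, the Ldhb window 17 and 57.3%, and the Eno2 window 15 and 56.3%. The medians over all windows were 7 CpG and 52.7%, so all 4 windows lay above them. These matches are descriptions of letters and not of bound sites.

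At 3 weeks the genes that passed the authors' test were mostly lower in the knockout, and at 3 months most were higher. Calls rest on an adjusted p under 0.05 in the authors' deposited tables (DESeq2, Benjamini-Hochberg over all genes tested). In 3-week males 8 of the 10 genes had an adjusted p, and 4 were lower (Hk1, Ldhb, Ldhd and Gpr81) and 1 higher (Eno2), where 17.3% of all tested genes were called, 8.52% lower and 8.81% higher. In 3-week females 9 had one, and 3 were lower (Ldhb, Ldhd and Gpr81) and 1 higher (Eno2), where 18.7% of all tested genes were called, 10.4% lower and 8.29% higher. In 3-month males all 9 that had one were called, 6 higher (Hk1, Hk2, Eno2, Pkm, Slc16a3 and Gpr81) and 3 lower (Ldha, Ldhb and Ldhd), and 57.5% of all tested genes were called in that table, 29.8% higher and 27.8% lower. The genes without one carry the authors' status Outlier: Hk2 and Slc16a3 in 3-week males, Hk1 in 3-week females and Pfkp in 3-month males. The median log2 fold change of all 10 was -0.21, -0.30 and 1.36 in 3-week males, 3-week females and 3-month males, against -0.01, 0.01 and 0.01 over the tested genes of each table. The authors' size factors matter here. Scaling libraries to their total counts would add 0.18, 0.15 and 0.49 to every log2 fold change in that order, and values below are relative to the authors' scaling. With it, 3 of the genes were called in 3-week males instead of 5, and 2129 of 2830 calls over all genes were higher in the knockout there (75.2%, against 50.8%). In females 74.0% of calls would be higher, against 44.2%, and in 3-month males 84.0%, against 51.7%.

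**Figure D1:**
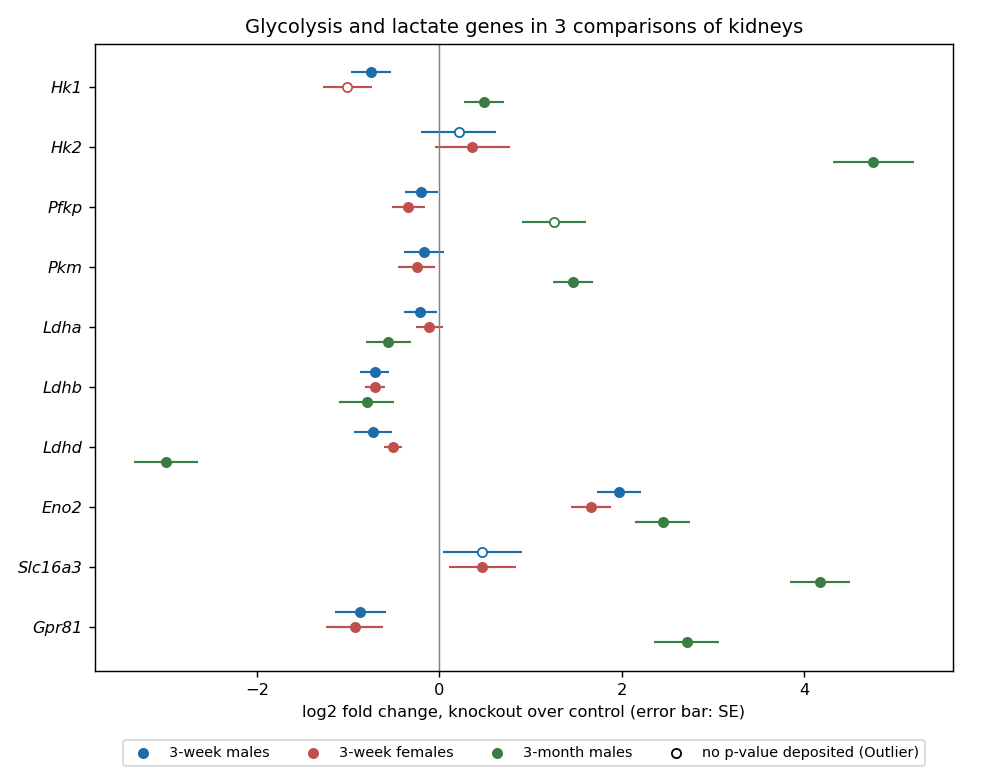
Log2 fold change of knockout over control (x axis) for the 10 genes (rows) in the 3 comparisons, from the authors' deposited tables, with the standard error as bar; open points have no p-value. Hk2, Slc16a3 and Gpr81 lie far to the right at 3 months (4.76, 4.17 and 2.71), Ldhd far to the left (-3.00), and the points of Ldhb lie close together in the 3 comparisons (-0.71, -0.71 and -0.80).

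The genes span a wide range of levels. Per kilobase of merged exons and 1e6 normalized counts, 3-week males had the order Ldhb (769), Ldha (211), Pkm (91.6), Hk1 (22.7), Ldhd (15.7), Pfkp (6.02), Gpr81 (2.13), Eno2 (1.28), Hk2 (1.08) and Slc16a3 (0.512). In 3-week females Ldhb had 730, Ldha 194 and Pkm 89.6 on this level scale, and the lowest were Slc16a3 at 0.700 and Hk2 at 0.723. At 3 months Ldhb had 618, Ldha 207 and Ldhd 158, and Pkm followed Ldhd at 65.0. The 4 least abundant genes were the same in every table. The spread over libraries cannot be given, so whether neighbours in these orders differ was not tested.

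The deposited mean and fold change imply a mean for each genotype. These implied means, in normalized counts, assume the library numbers read from the recurring means, and they are approximate because the deposited fold changes may be moderated towards 0. With the labelled library numbers the ratios were the same and each mean moved by less than 1.5 times.

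**Figure D2:**
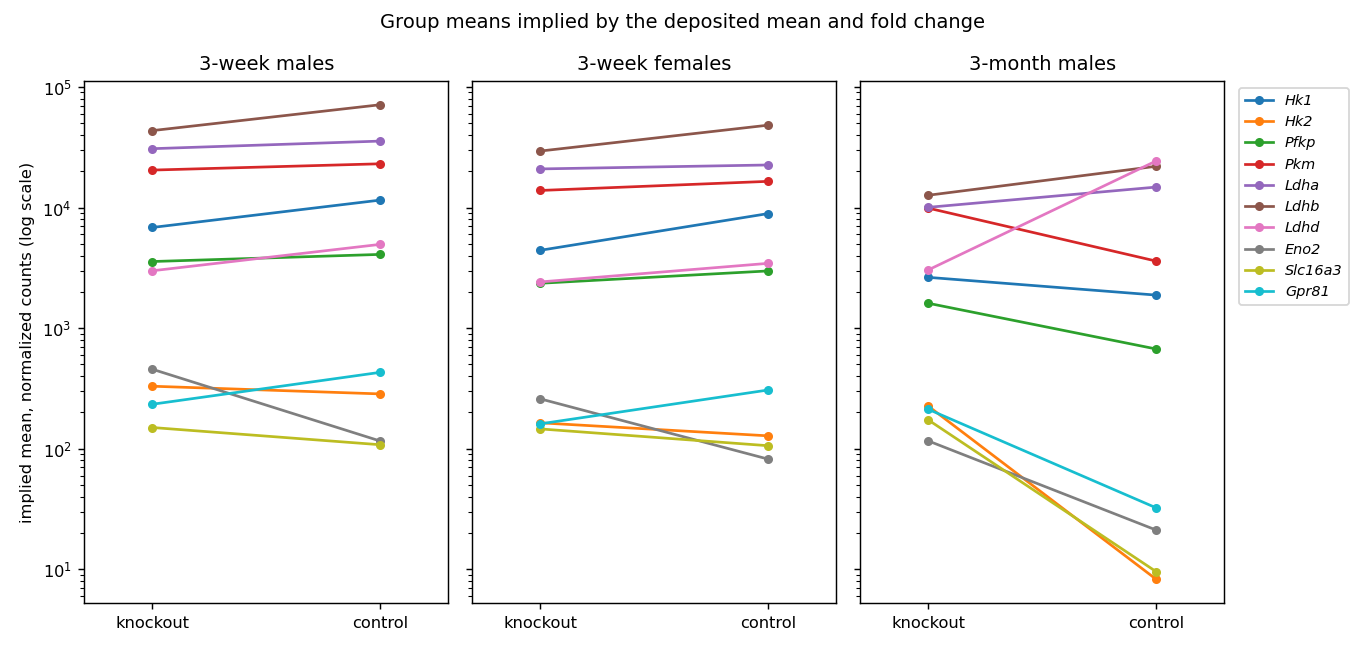
Implied mean of normalized counts (log scale) in knockout (left) and control kidneys (right) for the 10 genes, one panel a comparison. Hk2 and Slc16a3 run down steeply from knockout to control at 3 months (225 against 8.29 and 173 against 9.59) and are nearly flat at 3 weeks.

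Hexokinases phosphorylate glucose on entry. Hk1, the form bound to mitochondria in most cells (chromosome 10, 62268855 to 62379908, minus strand, GRCm38), was lower in young knockout males and higher in adult ones. Its implied means were 6839 in knockout and 11524 in control males at 3 weeks, 4423 in knockout and 8909 in control females, and 2637 in knockout and 1880 in control males at 3 months. The authors' deposited tables gave log2 fold changes of -0.75 ± 0.22 (SE, adjusted p = 0.00738) in 3-week males, -1.01 ± 0.27 without a p-value in females and 0.49 ± 0.22 (adjusted p = 0.0489) in 3-month males. The call at 3 weeks was lost with total-count scaling (adjusted p = 0.0527), and the call at 3 months when genes of the status Low and Outlier were included (adjusted p = 0.0565). Hk2, the inducible hexokinase (chromosome 6, 82725025 to 82774454, minus strand), had implied means of 225 in knockout and 8.29 in control males at 3 months. Its log2 fold change there was 4.76 ± 0.44 (adjusted p = 1.29e-25) in the authors' deposited table, a 27.1-fold higher level in the knockout. The implied control mean of Hk2 lay below 10.01, the lowest mean of a tested gene there. Hk2 was thus tested through its level in the knockout, and the size of the ratio is uncertain. With a mean of 94.9 over both genotypes, Hk2 was left out at a mean of at least 100. At 3 weeks Hk2 was at 0.21 ± 0.41 in males, without a p-value, and at 0.36 ± 0.41 (adjusted p = 0.603) in females in the authors' deposited tables. The 95% intervals at 3 weeks ran from -0.59 to 1.01 in males and from -0.44 to 1.16 in females. Because Hk2 has no p-value in 3-week males, its difference between the ages was given no test.

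Phosphofructokinase adds the second phosphate and sets the pace of the pathway. Pfkp, its platelet-type form (chromosome 13, 6579768 to 6648777, minus strand), was not called at 3 weeks. It was at -0.20 ± 0.18 (adjusted p = 0.544) in males and at -0.34 ± 0.18 (adjusted p = 0.181) in females in the authors' deposited tables. At 3 months its implied means were 1607 in knockout and 672 in control kidneys, with 1.26 ± 0.35 and no p-value in the authors' deposited table. Exons of Pfkp share 748 bases with those of Pitrm1 on the opposite strand, and the sources used here do not say whether counting used strand. Pitrm1 was lower at 3 months, at -0.89 ± 0.12 (adjusted p = 9.13e-12) in the authors' deposited table.

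Eno2, the enolase best known from neurons (chromosome 6, 124760053 to 124769673, minus strand), was the only one of the 10 genes called higher in all 3 comparisons. Hk2 and Slc16a3 also had positive values in all 3, but no p-value in 3-week males and no call in 3-week females. The implied means of Eno2 were 456 in knockout and 116 in control males at 3 weeks, 259 in knockout and 82.1 in control females, and 116 in knockout and 21.2 in control males at 3 months. The authors' deposited tables gave 1.97 ± 0.24 (adjusted p = 3.00e-14), 1.66 ± 0.22 (adjusted p = 1.36e-12) and 2.45 ± 0.30 (adjusted p = 1.37e-15) in that order. Of the list of 7 neural genes, Snap25, Syp, Stmn2, Tubb3, Elavl4, Dbh and Th, only Syp and Stmn2 had means high enough to be tested. Syp was lower in 3-week females and 3-month males, at -0.79 and -0.98, and Stmn2 higher at 3 months, at 1.49, in the authors' deposited tables. The list did not move one way: 2 of its genes had positive and 5 negative values in 3-week males, 3 and 3 in 3-week females, and 4 and 1 in 3-month males, where 2 were without a value. Of the 7 genes, 5 had the status Low in every comparison, so the list gives little measure of neural RNA beside Eno2. Eno1, the enolase of most tissues, was listed with means of 65.1, 42.8 and 0 normalized counts, and gives no measure of enolase as a whole.

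Pyruvate kinase makes pyruvate in the last step, and Pkm (chromosome 9, 59656368 to 59679375, plus strand) gives both its muscle and its proliferating-cell splice form, which these counts do not separate. Its exons share 767 bases with Gm49759 on the same strand, and those of Hk1 share 157 with the antisense Hk1os. Pkm was not called in young kidneys, at -0.17 ± 0.22 (adjusted p = 0.696) in males and -0.25 ± 0.20 (adjusted p = 0.411) in females in the authors' deposited tables. At 3 months it had implied means of 9883 in knockout and 3599 in control kidneys, and 1.46 ± 0.22 (adjusted p = 6.34e-10) in the authors' deposited table. The adult knockout had 2.75-fold more Pkm RNA.

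Lactate dehydrogenases convert pyruvate and lactate. Ldha encodes the subunit that favours lactate formation and Ldhb the one that favours its use, while Ldhd is a mitochondrial enzyme of D-lactate. Ldhb (chromosome 6, 142490249 to 142507957, minus strand) was lower by nearly the same factor in each comparison. Implied means were 43457 in knockout and 71162 in control males at 3 weeks, 29418 in knockout and 48187 in control females, and 12652 in knockout and 21983 in control males at 3 months. The authors' deposited tables gave -0.71 ± 0.16 (adjusted p = 9.48e-05), -0.71 ± 0.11 (adjusted p = 9.74e-09) and -0.80 ± 0.30 (adjusted p = 0.0150) in that order. Abundant genes as a whole were lower at 3 months: genes of like mean to Ldhb had a median of -1.41 there, and relative to them Ldhb was at 0.61 (adjusted p = 0.0716). With total-count scaling Ldhb was at -0.30 at 3 months and not called (adjusted p = 0.373). In 3-week males the median of like genes was -0.36, and relative to it Ldhb was at -0.35 and no longer called (adjusted p = 0.114). Ldha (chromosome 7, 46841475 to 46855627, plus strand) was not called at 3 weeks, at -0.21 ± 0.18 (adjusted p = 0.508) in males and -0.11 ± 0.15 (adjusted p = 0.673) in females in the authors' deposited tables. At 3 months it was lower, at -0.56 ± 0.25 (adjusted p = 0.0432) in the authors' deposited table, with implied means of 10046 in knockout and 14778 in control kidneys. Relative to genes of like mean, whose median was -1.33, the direction turned, to 0.77 (adjusted p = 0.00451). The call was lost with total-count scaling (-0.06, adjusted p = 0.835) and with Low and Outlier genes included (adjusted p = 0.0501). The annotation names 2 processed copies of Ldha, so its counts are uncertain where reads match those copies.

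Ldhd (chromosome 8, 111623785 to 111630374, minus strand) fell at both ages and in both sexes, most in adults. Its implied means were 2992 in knockout and 4949 in control males at 3 weeks, 2417 in knockout and 3446 in control females, and 3046 in knockout and 24309 in control males at 3 months. The implied adult control level thus stood apart from the other 5 group means, though the tables were normalized separately. On the level scale, over both genotypes, Ldhd had 15.7 in 3-week males, 16.2 in 3-week females and 158 in 3-month males. The authors' deposited tables gave -0.73 ± 0.21 (adjusted p = 0.00502), -0.51 ± 0.10 (adjusted p = 6.75e-06) and -3.00 ± 0.35 (adjusted p = 7.71e-17) in that order, a level 7.98-fold lower in the adult knockout. Genes of like mean had a median of -1.38 at 3 months. Exons of Ldhd share 2246 bases with Znrf1 on the opposite strand, and Znrf1 was higher at 3 months, at 0.68 ± 0.09 (adjusted p = 8.71e-14) in the authors' deposited table.

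Slc16a3 encodes a monocarboxylate transporter that exports lactate from glycolytic cells (chromosome 11, 120948480 to 120960868, plus strand). At 3 months its implied means were 173 in knockout and 9.59 in control kidneys, and its log2 fold change was 4.17 ± 0.33 (adjusted p = 2.70e-34) in the authors' deposited table, an 18.0-fold higher level. The implied control mean again lay below 10.01, so the size of this ratio is uncertain too. With a mean of 74.8 over both genotypes, Slc16a3 was left out at a mean of at least 100. At 3 weeks Slc16a3 was at 0.47 ± 0.43 without a p-value in males and at 0.47 ± 0.37 (adjusted p = 0.408) in females in the authors' deposited tables. Gpr81 encodes the G protein-coupled receptor for L-lactate, best known from fat cells (chromosome 5, 123876736 to 123880020, minus strand). It was lower in young knockouts and higher in adult ones. Implied means were 234 in knockout and 430 in control males at 3 weeks, 161 in knockout and 307 in control females, and 212 in knockout and 32.4 in control males at 3 months. The authors' deposited tables gave -0.87 ± 0.28 (adjusted p = 0.0126), -0.93 ± 0.31 (adjusted p = 0.0209) and 2.71 ± 0.36 (adjusted p = 7.15e-13) in that order. Both calls at 3 weeks were lost with total-count scaling (adjusted p = 0.0573 in males and 0.0539 in females), with the same direction. At 3 months, genes of like mean had positive medians of 0.65 for Hk2, 0.62 for Slc16a3, 0.57 for Gpr81 and 0.86 for Eno2. Relative to them, these genes were at 4.11, 3.55, 2.14 and 1.59 in that order, and the calls were kept. For the more abundant Hk1 and Pkm, also called higher there, these medians were -0.34 and -0.76.

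Whether the genotype effect differed between comparisons was tested as the difference of 2 log2 fold changes over their combined standard error (2-sided, Benjamini-Hochberg over all genes tested in both tables). Between 3-week females and 3-week males no gene of 13737 passed, and 237 had an unadjusted p under 0.05, none of them among the 7 of the 10 genes that could be tested (0% called). The differences of those 7 lay between -0.32 (Eno2, 95% interval from -0.95 to 0.32) and 0.21 (Ldhd, from -0.24 to 0.67), so the sexes were not shown to differ or to be alike. Between 3-month and 3-week males 27.7% of 12355 genes passed, and 4 of the 7 that could be tested did. Gpr81 differed by 3.58 ± 0.46 (SE, adjusted p = 5.87e-13), Pkm by 1.63 ± 0.32 (adjusted p = 5.87e-06) and Hk1 by 1.24 ± 0.32 (adjusted p = 8.08e-04), each with the higher value at 3 months. Ldhd differed by -2.27 ± 0.40 (adjusted p = 6.03e-07), and that call was lost relative to genes of like mean (-0.93, adjusted p = 0.0773). Relative to genes of like mean Ldhb passed in its place, with a difference of 0.96 (adjusted p = 0.0231) and the opposite sign. In the authors' scaling Ldha, Ldhb and Eno2 did not pass, at -0.35 (95% interval from -0.95 to 0.25), -0.09 (from -0.75 to 0.57) and 0.48 (from -0.27 to 1.22). Hk2, Slc16a3 and Pfkp have no p-value in 1 of the tables, and their differences of 4.55 ± 0.60, 3.69 ± 0.54 and 1.45 ± 0.39 were therefore given no test. With genes of the status Low and Outlier included, 7 of the 10 passed. The largest standard error was 0.44 in 3-week males, 0.42 in 3-week females and 1.10 in 3-month males. The tables may have moderated fold changes to different degrees, which limits these tests, and how far they did so was not tested.

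**Figure D3:**
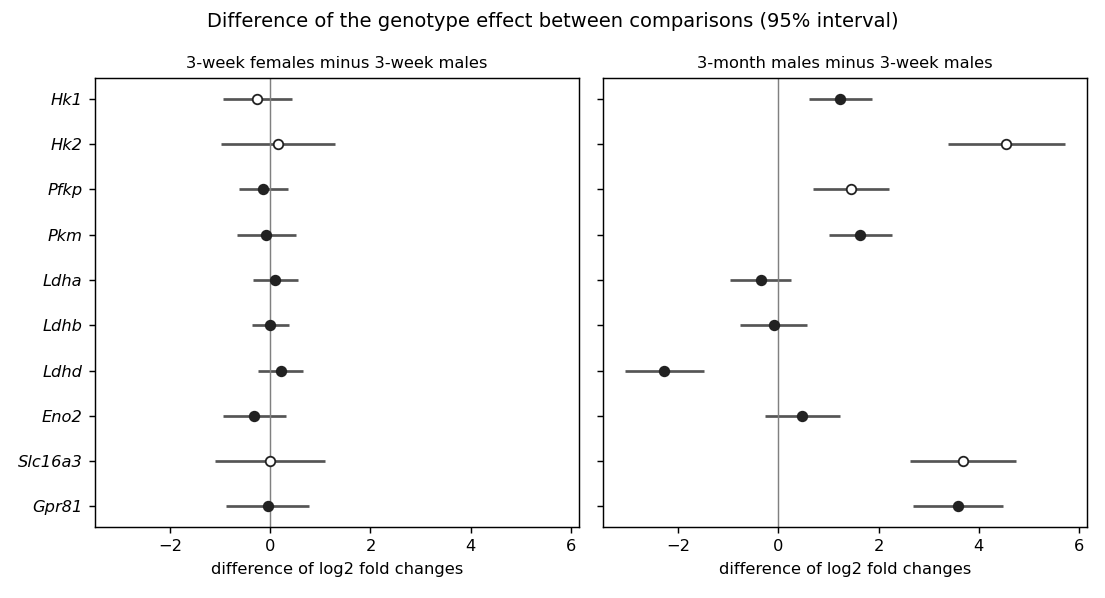
Difference of log2 fold changes (x axis, with its 95% interval) for the 10 genes, for 3-week females minus 3-week males (left) and 3-month males minus 3-week males (right); open points have no p-value in 1 table. All intervals on the left include 0, and on the right those of Gpr81, Slc16a3, Hk2, Pfkp, Pkm and Hk1 lie above 0 and that of Ldhd below.

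The rest of the pathway was described from whole lists, which include the 10 genes. Of 25 glycolytic enzyme genes in the tables, 21 were tested in 3-week males and 2 were higher and 9 lower, with a median of -0.33. In 3-week females 3 were higher and 7 lower of 20 tested (median -0.34), and in 3-month males 6 were higher and 5 lower of 17 tested (median -0.21). Over all tested genes, 8.81% were higher and 8.52% lower in 3-week males, 8.29% and 10.4% in 3-week females, and 29.8% and 27.8% in 3-month males. The adult count for glycolysis thus lay near that of all genes, and the other list counts are to be read against the same shares. Pfkm, Gapdh and Pklr, which encode the muscle phosphofructokinase, glyceraldehyde-3-phosphate dehydrogenase and the pyruvate kinase of liver and proximal tubule, were lower in all 3 tables. At 3 months Gapdh (mean 11803) was at -0.87 in the authors' deposited table, where genes of like mean to Ldha (mean 12886) had a median of -1.33. The authors' deposited tables put Pklr at -0.96, -0.69 and -0.90 in 3-week males, 3-week females and 3-month males. Pgam2, a phosphoglycerate mutase, was lower in 3-week males (-2.02 ± 0.22) and females (-1.75 ± 0.19) and had no p-value at 3 months (-1.37 ± 0.66) in the authors' deposited tables. Aldoc, an aldolase, resembled Gpr81 in turning, at -1.88 ± 0.22 in 3-week males and 0.82 ± 0.27 in 3-month males in the authors' deposited tables. Its difference of 2.70 ± 0.35 between them passed (adjusted p = 2.31e-12).

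Tested genes of pyruvate entry into mitochondria were lower or not called. Of 13 genes of the mitochondrial pyruvate carrier and the pyruvate dehydrogenase complex with its kinases and phosphatases, 7 of 12 tested were lower in 3-week males, 6 of 12 in 3-week females and 10 of 11 in 3-month males, where 8.52%, 10.4% and 27.8% of all tested genes were lower. No tested gene of the list was called higher. Pdp1, a phosphatase that activates the complex, had no p-value at 3 months and stood at 1.70 (95% interval from 0.91 to 2.50) in the authors' deposited table. Mpc1, Mpc2, Pdha1, Pdhb and Pdk2 were lower in all 3 tables. Among the carrier subunits, Mpc1 was at -0.72, -0.59 and -1.40 and Mpc2 at -0.60, -0.64 and -0.83 in the authors' deposited tables. Pdk2, a kinase that inhibits the complex, was at -0.59, -0.59 and -2.05 there. Abundant genes as a whole were lower at 3 months, and the shares over all genes are not matched for abundance. Pdha1 (mean 12065) was at -1.31 at 3 months, where genes of like mean to Ldha (mean 12886) had a median of -1.33. Pdk2 had a mean of 5951 there, and genes of like mean to Pkm (mean 6112) had a median of -0.76. The list as a whole was not set against genes of like mean.

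Among the lactate handling genes, 1 was higher and 5 lower of 10 tested in 3-week males, 1 higher and 6 lower of 10 in 3-week females, and 3 higher and 5 lower of 8 in 3-month males. Slc5a12, the sodium-coupled transporter that takes up lactate in the proximal tubule, was at -1.13 ± 0.22, -0.56 ± 0.16 and -3.13 ± 0.31 in the authors' deposited tables and called in each. Slc16a7, a lactate and pyruvate transporter, was lower at 3 weeks, at -1.28 ± 0.25 in males and -1.20 ± 0.16 in females in the authors' deposited tables. Emb, a protein that accompanies monocarboxylate transporters at the membrane, was higher in all 3, at 0.83, 0.69 and 0.80 there. At 3 months Slc5a12 was lower and Slc16a3 higher. Slc16a1, another monocarboxylate transporter gene, was at -1.29 ± 0.66 and Slc16a7 at -1.07 ± 0.42 there, both without a p-value, in the authors' deposited table. On the level scale Slc16a1 had 21.3 and Slc16a3 0.748 in that table. Over the list 3 genes had positive and 10 negative values at 3 months. Whether lactate transport changed was not tested.

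Of 11 regulators of glycolysis, 1 was higher of 11 tested in 3-week males, 1 higher and 1 lower of 9 in females, and 3 higher and 2 lower of 9 in 3-month males. The transcription factor gene Myc was higher in each, at 1.39, 0.95 and 1.69 in the authors' deposited tables. Pfkfb3, which makes an activator of phosphofructokinase, was higher at 3 months, at 1.76 ± 0.16 (adjusted p = 5.45e-26) in the authors' deposited table. Of 10 other genes known as targets of hypoxia-inducible factors, 1 was higher and 2 lower of 10 tested in 3-week males, 1 higher of 8 in females, and 2 higher and 3 lower of 8 in 3-month males. Egln3, a prolyl hydroxylase that marks these factors for decay, was higher in all 3, and Car9, a carbonic anhydrase, was lower in 3-week males (-1.61 ± 0.25) and 3-month males (-2.52 ± 0.40) in the authors' deposited tables.

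**Figure D4:**
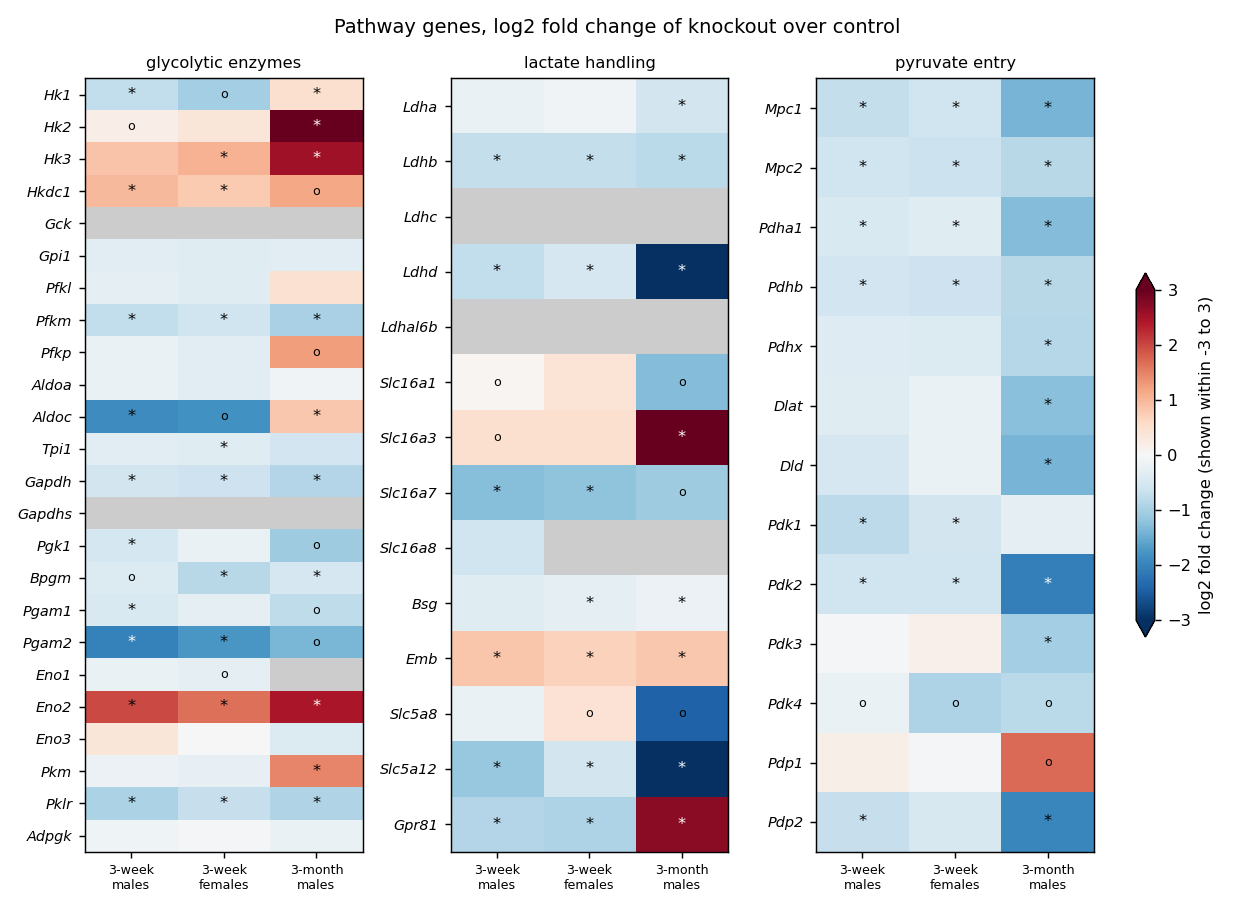
Log2 fold change of knockout over control (colour, shown within -3 to 3) for genes of glycolysis, lactate handling and pyruvate entry (rows) in the 3 comparisons (columns); a star marks an authors' adjusted p under 0.05, o an Outlier without p-value, and grey a gene of the status Low. Pyruvate entry is blue nearly throughout, while Hk2, Slc16a3 and Gpr81 turn dark red at 3 months.

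Markers of other cells moved with the adult values. Beside the higher Gpr81, Hk2 and Slc16a3 at 3 months, all 8 fat cell genes had positive values, 3 of 4 tested were called, and their summed implied means were 27045 in knockout and 2306 in control kidneys. In the authors' deposited table Retn had 6.80, Plin1 4.67 and Fabp4 3.39 on the log2 scale. The 6 urothelial genes were all positive too, with summed implied means of 33409 in knockout and 187.3 in control kidneys, and the authors' deposited table put Krt5 at 10.02 ± 0.50. Only 2 of these 6 were tested, and those were called higher, while 4 had the status Outlier. Genes of immune cells were higher in 9 of 9 cases, with summed implied means of 35864 in knockout and 4129 in control kidneys, and tubular injury genes in 8 of 8 tested cases, with 174790 and 29444. Fibroblast genes were higher in 4 of 4 tested cases, with 28971 and 4183. Proximal tubule genes, which stand beside the lower Ldhd and Slc5a12, were all negative, with summed implied means of 83258 in knockout and 449028 in control kidneys. Only 3 of these 10 were tested, and those were called lower. The other 7 had the status Outlier, so the sums rest mostly on genes without a p-value. No gene of these 6 lists was at 0 in a table, and their part in the values of the 10 genes was not tested.

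The same lists had these values at 3 weeks. Fat cell genes summed to 22039 in knockout and 22263 in control males and to 8876 in knockout and 13290 in control females. Only 1 of the 8 was tested in each of these tables and it was not called, so fat cell genes were hardly tested at 3 weeks. Urothelial genes summed to 10101 in knockout and 2833 in control males and to 4545 and 3300 in females. Only 1 of the 6, Trp63, was tested in each of these tables, and it was called higher in both. Immune cell genes were higher in 7 of 9 cases in males and 6 of 9 in females, and proximal tubule genes lower in 6 of 10 and 2 of 6. Tubular injury genes were higher in 7 of 8 tested cases in males, with summed implied means of 312540 in knockout and 150431 in control kidneys. In females 6 of 7 tested were higher, with sums of 185703 in knockout and 110759 in control kidneys. Of the fibroblast genes 1 of 2 tested was higher in males, with sums of 153602 in knockout and 90354 in control kidneys. In females 5 of 8 tested were higher and 1 lower, with sums of 90887 in knockout and 62508 in control kidneys. These lists stood beside the lower Ldhb, Ldhd and Gpr81 and the higher Eno2 of young kidneys, and their part was not tested there either.

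Lists of other kidney cells and of dividing cells were counted as well. Thick ascending limb genes were lower in 4 and higher in 1 of 6 tested in 3-week males, in 4 and 1 of 6 in 3-week females, and 1 was tested and lower in 3-month males. Distal convoluted and connecting tubule genes were lower in 3 and higher in 1 of 6 tested in 3-week males, in 3 and 1 of 5 in females, and in 2 of 2 in 3-month males. Intercalated cell genes were lower in 3 of 5 tested in 3-week males and 2 of 4 in females, and the 1 tested at 3 months was not called. Principal cell genes were higher in 2 of 5 tested in 3-week males and 3 of 4 in 3-month males, and the 1 tested in females was not called. Endothelial genes were lower in 2 of 6 tested in 3-week males and 6 of 6 in females, and at 3 months 1 was higher and 1 lower of 4. Cell cycle genes were higher in 6 of 8 tested in 3-week males, 4 of 4 in females and 5 of 6 in 3-month males. No muscle gene was called among 1, 2 and 2 tested in the same order. What these lists contribute to the values of the 10 genes was not tested.

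**Figure D5:**
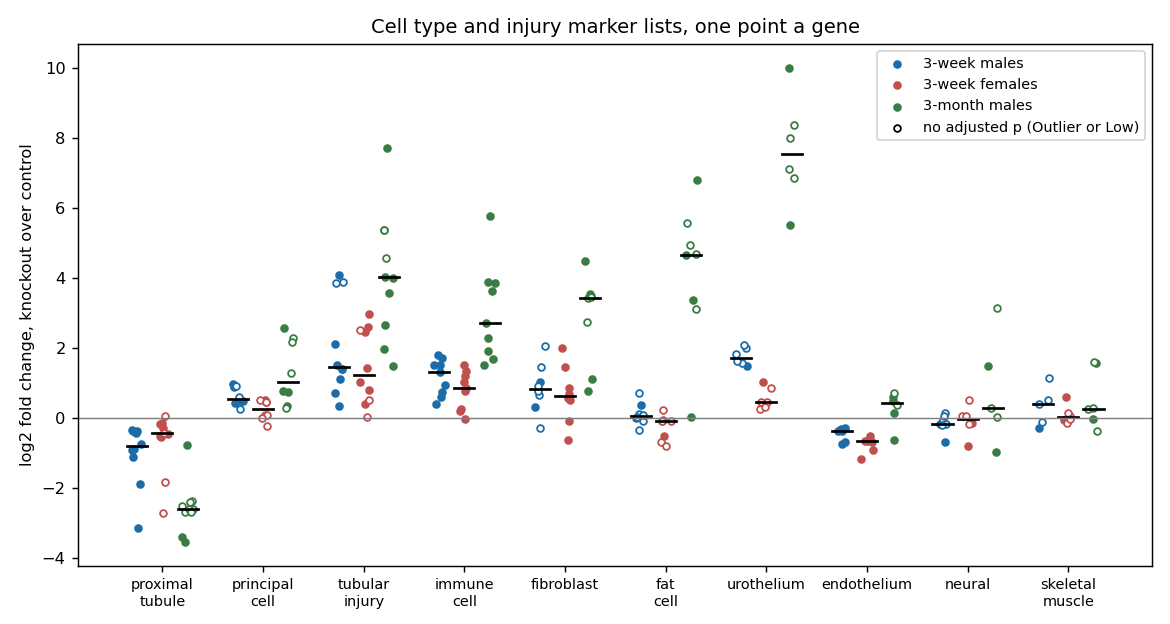
Log2 fold change of knockout over control (y axis) of the genes of 10 marker lists, one point a gene, by comparison; bars are medians over all genes of a list, and open points have no adjusted p. The fat cell and urothelial lists reach at most 2.09 at 3 weeks and have medians of 4.67 and 7.56 at 3 months.

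The genes with the most similar pattern were found as the smallest Euclidean distance over the 3 log2 fold changes among 9432 genes tested in all tables with a mean of at least 100. For Ldhb they were Atp5g1, a subunit of ATP synthase (distance 0.07), and Ndufb9, a subunit of complex I (0.08). Pkm lay closest to Cst3 (0.06) and Nt5c3l (0.08), and Ldha to Bmpr2 and Polr3a (0.03 each). For Ldhd they were Kap (0.29) and Afmid (0.31), and for Eno2 Dpysl3 (0.35) and Cpxm1 (0.38). Gpr81 had the most distant neighbours, Slco4a1 (0.60) and Angpt2 (0.69). Only 3 points make up each pattern, so these are descriptions.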

How the data were processed

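Polyadenylated kidney RNA was sequenced from stranded TruSeq libraries, per the labels' protocols. The submitters' processing notes name mm10, STAR, HOMER and DESeq2, without versions. The deposited columns are, per the file headers, a mean of counts divided by size factors (a signal), the log2 fold change, its standard error, and p-values. Every p-value deposited matched, within 0.01 of its size, a 2-sided normal test of fold change over standard error. The lowest means of genes with the authors' status OK were 10.02, 10 and 10.01. The files do not state the rule behind the status Outlier.

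The design foresaw the authors' comparisons where no value per library is given, and that case applied, so no count model was run. 27 symbols turned into dates were left out. Groups were taken from the titles. Members and lists were chosen with earlier results of these data known. Libraries behind a mean were read from values below 2 shared by at least 20 genes. The test of differences was tried on simulated normal effects with the deposited standard errors and no moderation of fold changes. That simulation could therefore not check the limits from moderation or from few libraries. Named genes were the members, pathway genes called alike in all 3 tables, the 3 smallest p per direction and table, up to 3 markers a list, and the 2 nearest patterns. A gene that this rule names is not reported here, but is included in the counts of its list. Lists of thick ascending limb, distal, intercalated, principal, endothelial, muscle and cell cycle markers were also counted. Positions and exon lengths come from GENCODE M21 (GRCm38, the build of mm10) and promoters from RefSeq. Software was Python 3.11.15, pandas 2.3.3, scipy 1.17.1 and matplotlib 3.10.9. The 5 alternatives were a stricter threshold, total-count scaling, centring on 501 genes of like mean, inclusion of Low and Outlier genes, and a mean of at least 100.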

Additional observations from a re-analysis of the deposited data

Results flagged for a closer look

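The effect of genotype differed between 3-month and 3-week males, by the test of the difference itself, for 4 of the 7 genes tested. The difference was 3.58 for Gpr81, 1.63 for Pkm, 1.24 for Hk1 and -2.27 for Ldhd on the log2 scale (3-month minus 3-week males), where 27.7% of all genes tested passed. Relative to genes of like mean, the Ldhd difference was -0.93 and no longer passed (adjusted p = 0.0773). Gpr81 and Hk1 were called in opposite directions at the 2 ages, with log2 fold changes of 2.71 at 3 months and -0.87 at 3 weeks for Gpr81 and of 0.49 and -0.75 for Hk1 in the authors' deposited tables. The calls at 3 weeks were lost with total-count scaling (adjusted p = 0.0573 for Gpr81 and 0.0527 for Hk1), and that of Hk1 at 3 months with Low and Outlier genes included (adjusted p = 0.0565).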

How the results depend on the processing

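No paired analysis was possible because the replicate numbers run from 1 to 15 without repeats and the tables hold no values per library. For the same reason no library could be left out, and no count could be repeated without a doubted library. With total-count scaling 3 members were called in 3-week males instead of 5, and with Low and Outlier genes included 7 members, instead of 4, differed between 3-month and 3-week males. The other counts of called or differing members stayed within 1.5 times. Directions turned for uncalled values of Pkm in 3-week males (0.00 with total-count scaling and 0.11 with centring on genes of like mean), of Ldha in 3-week males (0.12 with centring) and of Ldha in 3-week females (0.04 with total-count scaling and 0.11 with centring). With centring the calls of Ldha and Ldhb in 3-month males turned to 0.77 and 0.61. Differences turned for Ldha between 3-week females and males (-0.01 with centring) and, between 3-month and 3-week males, for Ldhb (0.23 with total-count scaling and 0.96 with centring, and called with centring, adjusted p = 0.0231), Ldha (0.65 with centring) and Eno2 (-0.26 with centring). The 4 genes that differed with centring were Gpr81, Pkm, Hk1 and Ldhb, without Ldhd. The cause was not tested. At an adjusted p threshold of 0.01, the calls of Gpr81 in both tables of 3-week kidneys and of Hk1, Ldha and Ldhb in 3-month males were lost. Fold change calls of Eno2, Hk2, Slc16a3 and Ldhd, and that of Pkm at 3 months, were kept in every setting that tested them. In 3-month males Eno2 (mean 59.2), Hk2 and Slc16a3 were not tested at a mean of at least 100. Depth per library is unknown. The tables may differ in how far fold changes were moderated.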
